A study of Mus musculus with 23 samples.

Results

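The PI3K, AKT and mTOR pathway was examined at the mRNA level in 23 murine pancreatic ductal adenocarcinoma (PDAC) cell lines. A list of 39 pathway genes was used, and a gene entered when the array carried a probe set annotated with its symbol and no other. This held for 38 genes with 100 probe sets in all, out of 18193 genes with such a probe set on the array, and the probe set with the highest mean over the lines stood for each gene. Rps6kb1 was the listed gene without such a probe set and is not analysed here.

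All 23 lines were untreated low passage cultures, hybridised on 1 array each. They form 1 group of pancreatic cancer lines without replicate arrays of a line, so the spread between lines holds both biology and technique. Of the lines, 12 carry the prefix PPT in their name and 11 another prefix, and 13 lines share the number in their name with at least 1 other line. The study's list of genotypes names 13 of the 23 lines, 10 from mice with Ptf1aCre/+ and 3 with Pdx1-Cre, drivers of recombination in pancreatic epithelium, and 6 of the 13 also with LSL-p53R172H/+. None of the 13 is listed with an activated p110 alpha allele. For the other lines no genotype is given in the labels or the study's list, nor is the age of any mouse. A line holds cells that grew on in culture, away from the tissue around the tumour.

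Growth factor receptors recruit PI3K, a heterodimer of a catalytic and a regulatory subunit, through adaptors such as the insulin receptor substrates. The lipid product brings AKT to the membrane, where Pdpk1 and the mTOR complex with Rictor phosphorylate it, while lipid phosphatases remove the signal. AKT restrains the FOXO transcription factors and the Tsc1 and Tsc2 complex, which otherwise holds back Rheb, the activator of the mTOR complex with Rptor. Amino acids reach the same complex through the Rag GTPases and the sestrins, and it drives translation through S6 kinases and the Eif4e binding proteins. In pancreatic cancer this pathway carries growth signals. The study describes Bez235 as a dual inhibitor of PI3K and mTOR and Rad001 as an mTOR inhibitor, without saying which mTOR complex Rad001 acts on.

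The deposited values are log2 signals, and the median of all of them was 3.76. A probe set below this median was not taken as shown to be expressed. The mean over lines lay below it for 2 of 38 members, Pik3cg and Rragd. Signals of different probe sets were not compared in height, since probes differ in affinity. Epithelial identity was checked first. The mean of 7 ductal markers ranged from 3.48 in ASC-5193 to 11.68 in PPT-15272, so ASC-5193 was below the array median in this mean. Of single markers, Krt8, Krt18 and Krt19 were below the array median in 1 line each, Krt7 in 4 and Epcam in 7. The leukocyte markers Ptprc, Coro1a and Aif1 were below it in all 23 lines, while Laptm5, Cd68 and Cd74 were above it in every line, Cd53 had a median of 7.07 and Itgb2 reached 9.05. The mean of the 10 leukocyte markers ranged from 3.43 to 4.23. The mean of 8 fibroblast markers ranged from 2.80 to 9.51.

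EMT state was measured as the mean of 9 mesenchymal genes minus the mean of 12 epithelial genes, each centred over the lines. No pathway member enters this score. The score fell into a set of 17 lines up to 1.21 and a set of 6 lines from 3.43, namely PPT-17728, PPT-5320, PPT-3250, ASC-53909, PPT-16992 and ASC-5193. The ductal marker mean was 8.94 to 11.68 in the 17 lines and 3.48 to 8.08 in the 6 lines, and the fibroblast marker mean was 2.80 to 9.41 and 5.99 to 9.51. Of the ductal markers, Cdh1, Epcam and Krt19 are also epithelial genes of the score, so this separation is partly built in. All 6 high-score lines are in the list of genotypes, and 1 of them carries LSL-p53R172H/+. A Tva-lacZ allele is listed for PPT-3250, PPT-16992, PPT-17728 and ASC-53909. Of the low-score lines in the list, PPT-5671 carries it, and its part in the contrast was not tested. The lines form separate sets, so no correlation coefficient with the score is given. The slopes over the score reported below are fitted over all 23 lines and span the gap between the sets.

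Promoter sequence is shown for Rragc and Sgk1, because both rose with the EMT score and carry a motif searched. The 250 bases before a transcript start were taken from RefSeq (GRCm38.p6) for the 35 members with an entry. They were searched on both strands for CAGGTG, the E2 box bound by Zeb and Snail factors, for CACGTG, the E box bound by Myc and Tfeb type factors, and for GTAAACA, the FOXO motif. Capitals mark the matches, and bases are counted back from the start.

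Rragc, chr4:123917183-123917432, plus strand: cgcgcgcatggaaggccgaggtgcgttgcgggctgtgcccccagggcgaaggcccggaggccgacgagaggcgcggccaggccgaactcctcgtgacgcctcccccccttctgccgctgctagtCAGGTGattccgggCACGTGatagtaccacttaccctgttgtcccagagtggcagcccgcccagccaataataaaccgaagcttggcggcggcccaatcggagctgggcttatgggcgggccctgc

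Sgk1, chr10:21993640-21993889, plus strand: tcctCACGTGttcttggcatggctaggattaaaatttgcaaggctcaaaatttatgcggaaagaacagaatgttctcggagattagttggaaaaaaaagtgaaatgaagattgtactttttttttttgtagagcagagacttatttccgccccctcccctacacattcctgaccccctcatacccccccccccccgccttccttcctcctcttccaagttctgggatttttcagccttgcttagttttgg

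The Rragc window held CAGGTG with its first base at -126 and CACGTG at -112. The Sgk1 window, 1 of 6 for that gene, held CACGTG at -246. Over all members, CACGTG was found in 6 of 35 genes (17.1%; Rheb, Eif4e, Irs1, Irs2, Sgk1 and Rragc), beside 6.86% of all 27025 genes. CAGGTG was found in 3 of 35 (8.57%; Pik3cd, Pip4k2c and Rragc), beside 19.4% of all genes, and GTAAACA in 3 of 35 (8.57%; Pik3cg, Akt1 and Mapkap1), beside 3.54%. The E2 box was therefore in the window of 1 of the 8 members that rose with the EMT score. A gene counted when any of its windows matched, and genes such as Sgk1 have several. The shares per gene are not corrected for the number of windows. A match is a description of the letters and not of binding.

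**Figure D1:**
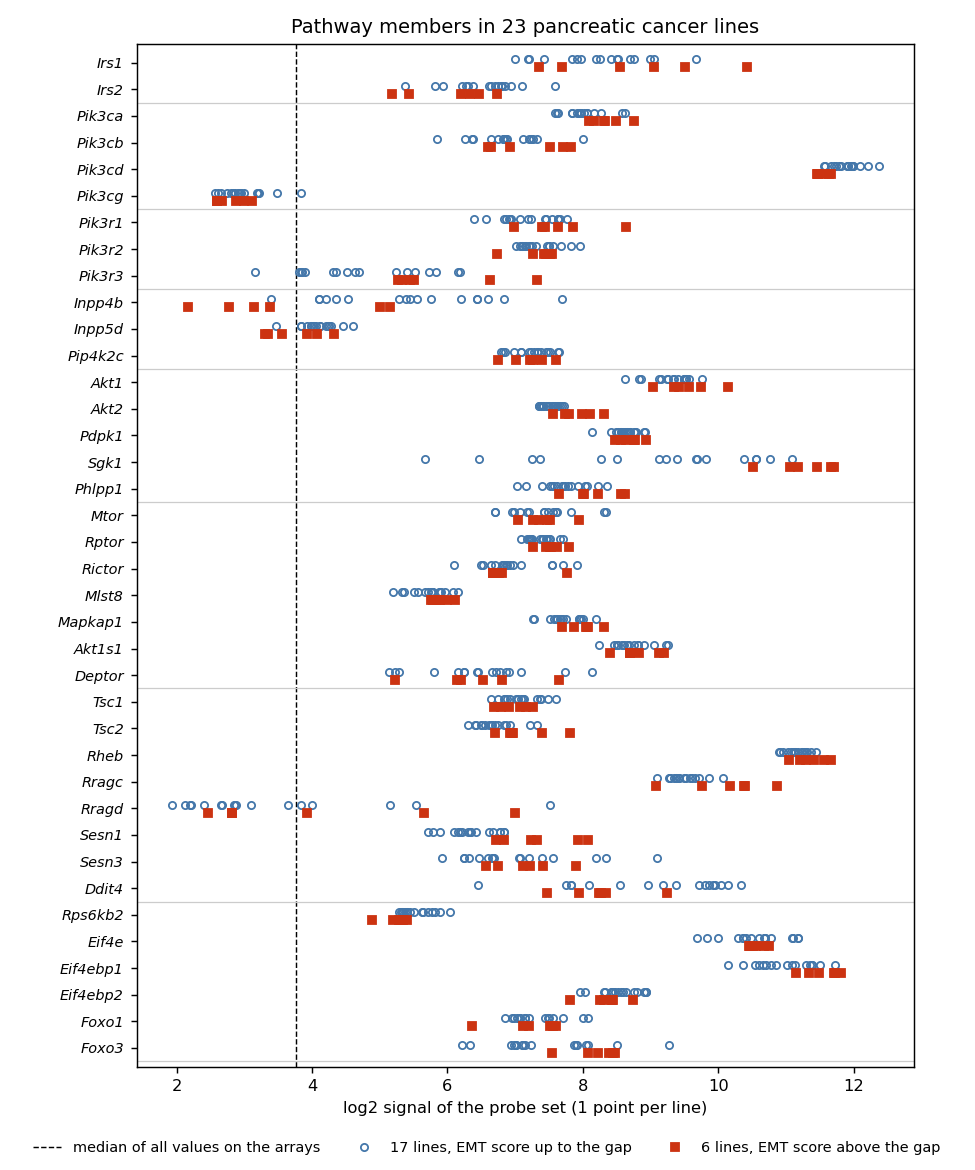
Log2 signal of the 38 members (rows, grouped by role from receptor adaptors at the top to effectors at the bottom), with 1 point per line. Circles are the 17 lines with a low EMT score, squares the 6 lines with a high score, and the dashed line is the median of all array values, 3.76. Sgk1, Rragd and Inpp4b spread most widely, and Pik3cg lies below the dashed line in 22 of 23 lines.

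The members differed widely in how much they varied between lines. The median SD over lines was 0.39 log2 units for the members and 0.31 for all genes, and 24 of 38 members exceeded the latter. By the probe set used, Pdpk1, Rptor and Rheb were the members with the lowest SD. Pdpk1, the kinase that activates AKT, ran from 8.13 to 8.94 with a median of 8.65 and an SD of 0.18. Its other probe set, at 6.52 to 8.52, had an SD of 0.46 and a Pearson r of 0.37 with it, so the low spread rests on 1 probe set. Rptor, the scaffold of the first mTOR complex, ran from 7.09 to 7.79 (SD 0.19). Rheb ran from 10.90 to 11.67 (SD 0.20). Mtor itself ran from 6.70 to 8.34 (SD 0.43), above the median SD of the members.

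Sgk1, an AKT related kinase activated by the mTOR complex with Rictor, had the widest spread of the members. Its lowest signal was 5.67 in HEP2-53631, its median 9.82 and its highest 11.71 in ASC-5193 (SD 1.69, the 97.2th percentile of all genes). The 6 high-score lines lay between 10.52 and 11.71 and the 17 others between 5.67 and 11.09, so the ranges overlapped at the top. Lines from number 53631 alone ran from 5.67 in HEP2-53631 to 9.12 in B-53631.

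Rragd, a Rag GTPase that carries the amino acid signal to mTOR, was below the array median in 15 of 23 lines. Its lowest signal was 1.93 in B-5123 and its median 2.86. PPT-5486 and ASC-5193 stood at the top with 7.51 and 7.0, followed by 5.65 in PPT-17728, 5.53 in PPT-5748 and 5.15 in PPT-5671. PPT-5193, which shares its number with ASC-5193, was at 2.41. Its paralogue Rragc, which like Rragd pairs with RagA or RagB, was at 9.08 to 10.87 in every line.

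Inpp4b, a lipid phosphatase that removes a product of PI3K, ran from 2.17 in ASC-53909 through a median of 5.15 to 7.69 in B-5123. It was below the array median in 5 lines, of which 4 are high-score lines, and 11 of the 17 low-score lines lay above all 6 high-score lines. Ddit4, a stress-induced inhibitor of mTOR, ran from 6.45 in PPT-6051 through a median of 8.96 to 10.33 in B-152727. B-6051, of the same number as the lowest line, was at 9.19. Pik3r3, a regulatory PI3K subunit, ran from 3.15 in PPT-53631 through 5.27 to 7.33 in ASC-53909. Irs1, the receptor adaptor, ran from 7.0 in PPT-53631 through 8.41 to 10.43 in ASC-5193. The extremes of these members fell in several lines, although ASC-5193 held the highest value of 7 of the 38 members, the most of any line. The share of all genes with their highest value in ASC-5193 was not computed.

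The next widest members were Deptor, an inhibitory partner of mTOR, with 5.14 in PPT-15272, a median of 6.45 and 8.13 in HEP2-53631, and the transcription factor Foxo3, with 6.21 in PUL-15272, a median of 7.87 and 9.28 in PPT-5671. Sesn3, a further sestrin, ran from 5.92 in PPT-6051 through 7.06 to 9.09 in PPT-5486. For all of these the lowest and the highest line have a low EMT score. The effectors below mTOR spread less. Eif4ebp1, the translation repressor that mTOR inactivates, ran from 10.14 in PPT-5671 through 11.15 to 11.81 in ASC-5193, and its target Eif4e, the cap binding protein, from 9.68 in PPT-5748 through 10.56 to 11.18 in PUL-15272. Rps6kb2, an S6 kinase, ran from 4.88 to 6.04. Foxo1, which like Foxo3 lies under AKT and not below mTOR, ran from 6.36 in ASC-53909 to 8.07 in PPT-5671.

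Lines of the same number differed from each other for many of these members. For the 4 lines of number 53631 the median range over members was 0.54, and 7 members spanned over 1 log2 unit, among them Sgk1, Ddit4 (7.82 in B-53631 to 9.95 in PPT-53631) and Inpp4b (4.10 in HEP2-53631 to 6.20 in B-53631). For the 3 lines of number 15272, 10 members did, with Pik3r3 at 3.85 in PUL-15272 and 6.15 in PPT-15272. HEP-5123 and B-5123 lay closest, with a median range of 0.14 and 1 member over 1 log2 unit, Inpp4b at 6.43 and 7.69. Both also held the highest Mtor signals of all lines, 8.34 and 8.31. The share of all genes that spanned over 1 log2 unit within a number was not computed.

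Isoform use was described as the difference of the centred log2 values of a pair of family members in each line. The Rag pair moved apart most, with a range of 5.84 for Rragc minus Rragd from -3.52 in PPT-5486 to 2.32 in PPT-16992, and Rragd supplied most of it. Among regulatory PI3K subunits, Pik3r2 minus Pik3r3 spanned 3.85 and Pik3r1 minus Pik3r3 spanned 3.65, each from its lowest value in ASC-53909 to its highest in PPT-53631. Pik3r1 minus Pik3r2 spanned 1.75. Pik3r1 and Pik3r3 nevertheless varied together (Pearson r = 0.68 over 23 lines, 0.73 over the 17 low-score lines, both descriptions only).

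Of the catalytic subunits, Pik3cb varied most (SD 0.52), close to Pik3r1 (SD 0.49) and below Pik3r3 (SD 1.03). Pik3ca, which encodes p110 alpha, ran from 7.59 to 8.76 with a median of 8.06, and Pik3cb, which encodes p110 beta, from 5.84 to 8.0 with a median of 6.87. Their difference ran from -1.09 in PPT-15272, the line with the highest Pik3cb, to 1.11 in PPT-5748. Pik3cg, the leukocyte-rich p110 gamma, ran from 2.56 to 3.84 and exceeded the array median in 1 line, PUL-15272. Pik3cd, the p110 delta gene, was represented by a probe set at 11.46 to 12.37, whereas its other 5 probe sets were below the array median in all 23 lines, and the correlation of the bright probe set with them was -0.44 to 0.47. The signal of that probe set is given as a value of the probe set, and it is uncertain as a level of p110 delta.

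Akt1 and Akt2, the kinases at the centre of the pathway, moved apart least of the 13 pairs, by 0.92 from lowest to highest. Akt1 ran from 8.63 in PPT-5748 to 10.15 in PPT-16992 and Akt2 from 7.35 in PPT-5671 to 8.31 in ASC-53909. Rptor minus Rictor, the scaffolds that define the alternative mTOR complexes, spanned 2.10, of which Rictor (6.09 to 7.91) supplied more than Rptor. Tsc1 minus Tsc2 spanned 1.84, from -0.90 in ASC-5193 to 0.94 in B-6051. Irs1 minus Irs2 spanned 3.34, Sesn1 minus Sesn3 3.27, Foxo1 minus Foxo3 2.83 and Eif4ebp1 minus Eif4ebp2 2.09. For Irs1 and Irs2 the highest difference, 1.75, was in ASC-5193, and for the FOXO factors the lowest, -1.74, was in ASC-53909.

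**Figure D2:**
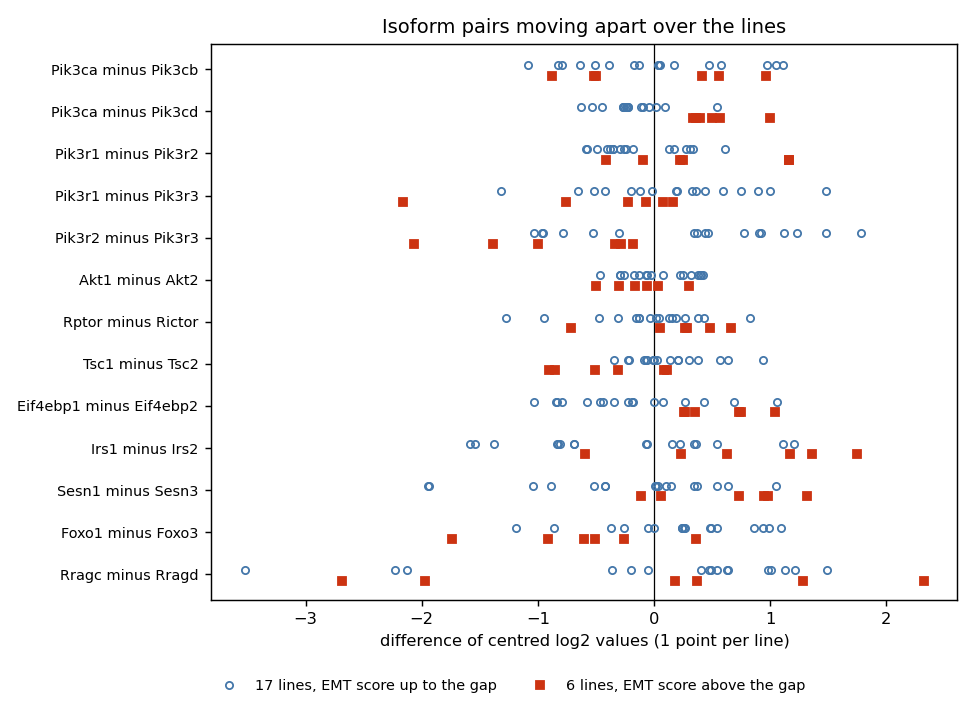
Difference of the centred log2 values of 13 isoform pairs in each line (horizontal axis, log2 units), with 1 point per line. Circles are the 17 low-score lines and squares the 6 high-score lines. A wide row means that the difference varied much between lines, as for Rragc and Rragd (range 5.84). A narrow row means that it varied little, as for Akt1 and Akt2 (0.92). Row width also reflects how much each gene varied, so a narrow row need not mean that a pair moved together. Pik3ca and Pik3cd, for example, spanned 1.62 with a Pearson r of -0.03 over 23 lines.

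Probe sets of the same gene agreed for some members only. Correlation with the probe set used was 0.95 to 0.96 for 3 of 5 others of Deptor, 0.98 for 1 of 2 others of Foxo3, 0.99 and 0.74 for Eif4ebp1, and 0.86 and 0.94 for 2 of 3 others of Foxo1. Those of Akt2 were at -0.06 and 0.02, and all 4 others of Eif4ebp2 lay between -0.12 and 0.28. Members as a whole did not move as a block. The median correlation over the 703 pairs of members was 0.08 across lines, 6 pairs exceeded 0.7 (Akt2 with Rragc, Akt2 with Sesn1, Rheb with Rragc, Pik3r1 with Irs1, Pik3r1 with Rragd and Akt1 with Rptor), and none was below -0.7. Akt2 with Sesn1 was 0.76 over 23 lines and 0.18 over the 17 low-score lines, whereas the other pairs above 0.7 ranged from 0.50 (Rheb with Rragc) to 0.69 (Akt1 with Rptor) over the 17 lines. The lowest value was that of Pik3cd with Mlst8, -0.69. These correlations come from the same 23 arrays and are given as descriptions.

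Next, each probe set was regressed on the EMT score with limma over all 23 lines, and slopes are given in log2 units per SD of the score. Of the 38 members, 8 rose with the score at an adjusted p under 0.05 (Sgk1, Sesn1, Rragc, Pik3r1, Phlpp1, Tsc2, Pik3ca and Akt2), which is 21.1%, beside 9.44% of all genes. Pik3cd fell, 1 of 38 members, beside 8.34% of all genes. In all, 26 members had a positive slope (68.4%, beside 50.4% of all genes) and 12 a negative slope. The median slope was 0.077 for the members and 0.00085 for all genes. No member separated the 6 high-score lines from the 17 others without overlap, as 1.65% of all genes did.

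**Figure D3:**
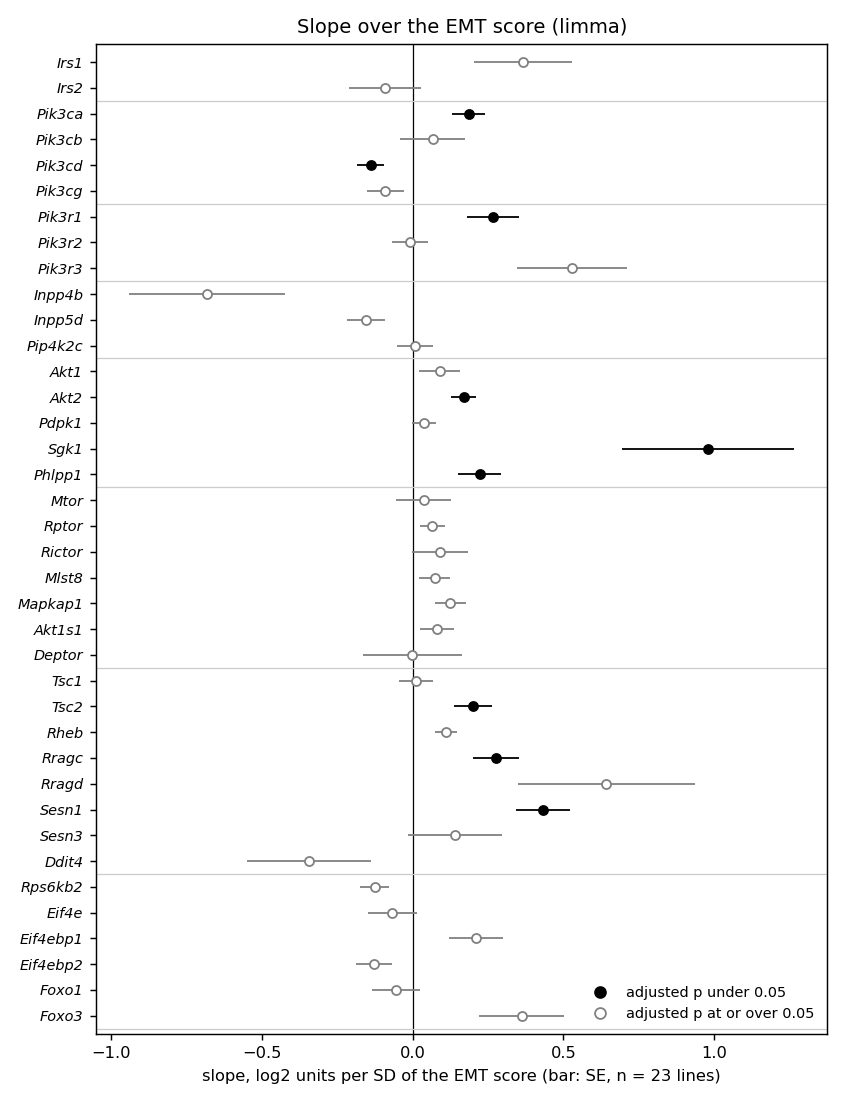
Slope of each member over the EMT score (horizontal axis, log2 units per SD of the score), with the SE as bars and n = 23 lines. Filled points have an adjusted p under 0.05 (limma, Benjamini-Hochberg over all probe sets): 8 lie to the right of 0 and Pik3cd to the left.

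Of AKT, its relatives and its direct regulators, 3 of 5 rose. Sgk1 had the steepest slope, 0.98 (SE 0.28, adjusted p = 0.0225), a 1.97-fold rise per SD, from a mean of 9.05 ± 1.58 (SD, n = 17) in the low-score lines to 11.27 ± 0.45 (SD, n = 6) in the high-score lines. Akt2 rose by 0.17 (SE 0.041, adjusted p = 0.00664), with 7.35 to 7.72 in the low-score lines and 7.56 to 8.31 in the high-score lines. The other 2 probe sets of Akt2 had slopes of -0.05 and 0.07 (adjusted p = 0.647 and 0.484), so the change rests on 1 probe set. Phlpp1, a phosphatase that switches AKT off, rose by 0.22 (SE 0.071, adjusted p = 0.0381) from 7.03 to 8.36 in the low-score lines to 7.65 to 8.62. Akt1 and Pdpk1 had slopes of 0.09 and 0.04 and did not pass, although a dimmer probe set of Akt1 fell by 0.25 (adjusted p = 0.00266). The other probe set of Pdpk1 had a slope of -0.18 and did not pass either (adjusted p = 0.180).

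Among PI3K subunits, Pik3ca rose by 0.19 (SE 0.055, adjusted p = 0.0260), from a median of 7.96 in the low-score lines to 8.32 in the high-score lines. Of its other probe sets, 1 passed with a slope of 0.15 (adjusted p = 0.0414) and 4 did not. Pik3r1, the main regulatory subunit, rose by 0.27 (SE 0.086, adjusted p = 0.0385), with medians of 7.19 and 7.54, and none of its 3 other probe sets passed. Pik3r3 had the larger slope, 0.53, but did not pass (adjusted p = 0.0545), and Pik3r2 was at -0.0078. Pik3cd fell by 0.14 (SE 0.046, adjusted p = 0.0432), but a dim probe set of the same gene rose by 0.13 (adjusted p = 0.0322), so no direction is given for the gene.

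Of the members upstream of the mTOR complex, Sesn1, Rragc and Tsc2 rose. Sesn1, a sestrin that restrains mTOR when amino acids are short, had the smallest p of the members. It ran from 5.72 to 6.84 in the low-score lines and from 6.72 to 8.08 in the high-score lines, with a slope of 0.43 (SE 0.089, adjusted p = 0.00193). Its other bright probe sets rose by 0.48 and 0.53 (adjusted p = 0.0066 and 0.00214), and the fourth was below the array median in all 23 lines. Rragc rose by 0.28 (SE 0.076, adjusted p = 0.0162), although its lowest value of all lines, 9.08, was in the high-score line PPT-3250. Tsc2, the GTPase activator that inhibits Rheb, rose by 0.20 (SE 0.063, adjusted p = 0.0350), while its partner Tsc1 had a slope of 0.01. Rheb had a slope of 0.11 (adjusted p = 0.0513) and Sesn3 0.14 (adjusted p = 0.605).

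None of the 7 members that make up the mTOR complexes or bind them passed. Their slopes lay between -0.00069 for Deptor and 0.13 for Mapkap1, and 6 of 7 were positive. None of the 6 effectors passed either: Foxo3 was at 0.36 (adjusted p = 0.0882), Eif4ebp1 at 0.21 (adjusted p = 0.117), and Rps6kb2 and Eif4ebp2 at -0.13. Dimmer probe sets of these genes did pass for Eif4ebp1 (0.34, adjusted p = 0.00659), Eif4ebp2 (-0.53, adjusted p = 0.0483) and Eif4e (-0.27, adjusted p = 0.00646). Among the lipid enzymes, Inpp4b had the steepest negative slope of all members, -0.68 (SE 0.26, adjusted p = 0.0803), without passing.

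**Figure D4:**
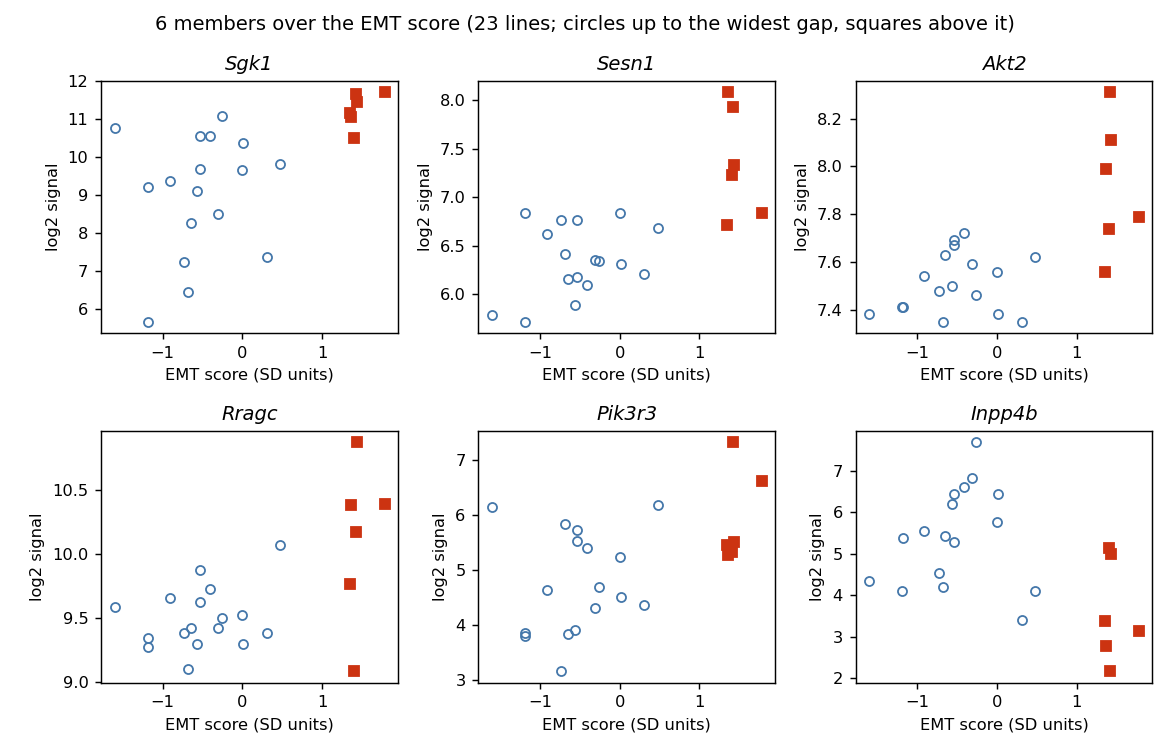
Log2 signal (vertical axes) of 6 members over the EMT score in SD units (horizontal axes), with 1 point per line and 23 lines per panel. The 6 high-score lines (squares) lie at the top of the range for Sgk1 and Sesn1, while Inpp4b is low in 4 of them, and no panel shows a gap in signal between the sets.

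The calls over the EMT score needed both sets of lines. Within the 17 low-score lines no member passed (3 had an unadjusted p under 0.05), and within the 6 high-score lines none passed (4 had an unadjusted p under 0.05). The 3 in the low-score lines were Rragd (slope 1.47), Rictor (0.48) and Tsc1 (0.25), none of them called over all lines. The share of all genes with an unadjusted p under 0.05 was not computed within either set of lines. Over the 17 lines the slopes of Pik3ca, Pik3r1 and Phlpp1, 0.20, 0.29 and 0.22, were about as large as over all lines. Their SEs were larger, at 0.13, 0.17 and 0.15, and the limma fit gave unadjusted p = 0.134, 0.107 and 0.164. The slopes of Sgk1, Sesn1, Rragc, Tsc2 and Akt2 were 0.43, 0.20, 0.13, 0.083 and 0.050 and that of Pik3cd 0.0026. With 1 mean per number in the names, 3 members passed, of which only Phlpp1 and Sesn1 were among the 9 called over all lines. Without ASC-5193, 3 passed (Akt2, Phlpp1 and Sesn1), and without PUL-15272, 5 of the 9 still passed (Akt2, Rragc, Sesn1, Sgk1 and Tsc2). Akt2 and Sesn1 alone passed whichever line was left out. With the number as a random block, Pik3cd, Pik3r1 and Phlpp1 lost their call (adjusted p = 0.0573, 0.0536 and 0.0742). Of all probe sets that passed, 52.1% rose, and 67.8% with each array centred on its median. The fibroblast marker mean, 5.99 to 9.51 in the high-score lines, and the ductal marker mean moved with the same contrast, and their part in these slopes was not tested.

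ASC-5193 and PPT-5193 were the only lines that share a number and lie in different sets. In ASC-5193, the high-score line, 28 of 38 members were higher than in PPT-5193 and 10 lower. Of them, 6 were over 1 log2 unit higher and Inpp4b over 1 log2 unit lower. The shares of all genes were not computed, so these counts are not read as a result about the members. Rragd was at 7.0 and 2.41, Sgk1 at 11.71 and 9.69, Irs1 at 10.43 and 8.76, Foxo3 at 8.47 and 7.01, Pik3r1 at 8.64 and 7.45, and Inpp4b at 3.14 and 5.28. Of the 9 members that passed, 7 differed in the direction of their slope, while Phlpp1 (7.65 and 8.06) and Pik3cd (11.63 and 11.58) did not. Both lines are in the fit that gave the slopes, so this is no independent support, and 1 array against 1 array has no test.

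Beyond the members, 54 other genes of the pathway were listed, of which 49 were measured. Of these, 10 rose with the EMT score (20.4%, beside 9.44% of all genes) and 5 fell (10.2%, beside 8.34%). Lamtor1 ran from 10.28 through 10.57 to 11.24, Lamtor5 from 10.10 through 10.40 to 10.99, Rraga from 8.02 through 8.68 to 10.16 and Stk11 from 7.51 through 8.07 to 8.78. Lamtor1 (slope 0.21, adjusted p = 0.000291) and Lamtor5 (0.18, adjusted p = 0.00476), subunits of the Ragulator that anchors Rag GTPases to the lysosome, rose. Of its other subunits, Lamtor4 rose (0.22, adjusted p = 0.0253), while Lamtor2 and Lamtor3 did not pass (0.068 and 0.081, adjusted p = 0.515 and 0.424). Rraga (0.32, adjusted p = 0.00555) and Stk11 (0.20, adjusted p = 0.00926), the kinase upstream of AMPK, also rose. Prr5, an mTOR complex subunit, Sgk2, Tti1 and the AMPK subunit Prkaa2 fell by 0.42, 0.39, 0.20 and 0.53 (adjusted p = 0.0132, 0.0216, 0.0294 and 0.0335). The medians of Prr5 and Prkaa2, 3.47 and 3.59, were below the array median. Prkaa1, the paralogue of Prkaa2, ran from 6.22 to 7.49 and rose by 0.25 (adjusted p = 0.0107), so the AMPK subunits went in opposite directions.

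Finally, the members were set against drug response. The IC50 values of Bez235 and Rad001 were those listed for each line by the study. By name, 22 lines could be matched. The label B-152727 matches no line with an IC50, and this line was left out. Slopes are in log2 units per doubling of the IC50, so a positive slope is a higher signal in less sensitive lines. In the limma fit for Bez235, 0 of 38 members passed at an adjusted p under 0.05, and the share of all genes that passed was 0%. The smallest adjusted p of a member was 0.722. At an unadjusted p under 0.05, 5 members had a positive slope (13.2%, beside 3.81% of all genes) and 1 a negative slope (2.63%, beside 3.48%).

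**Figure D5:**
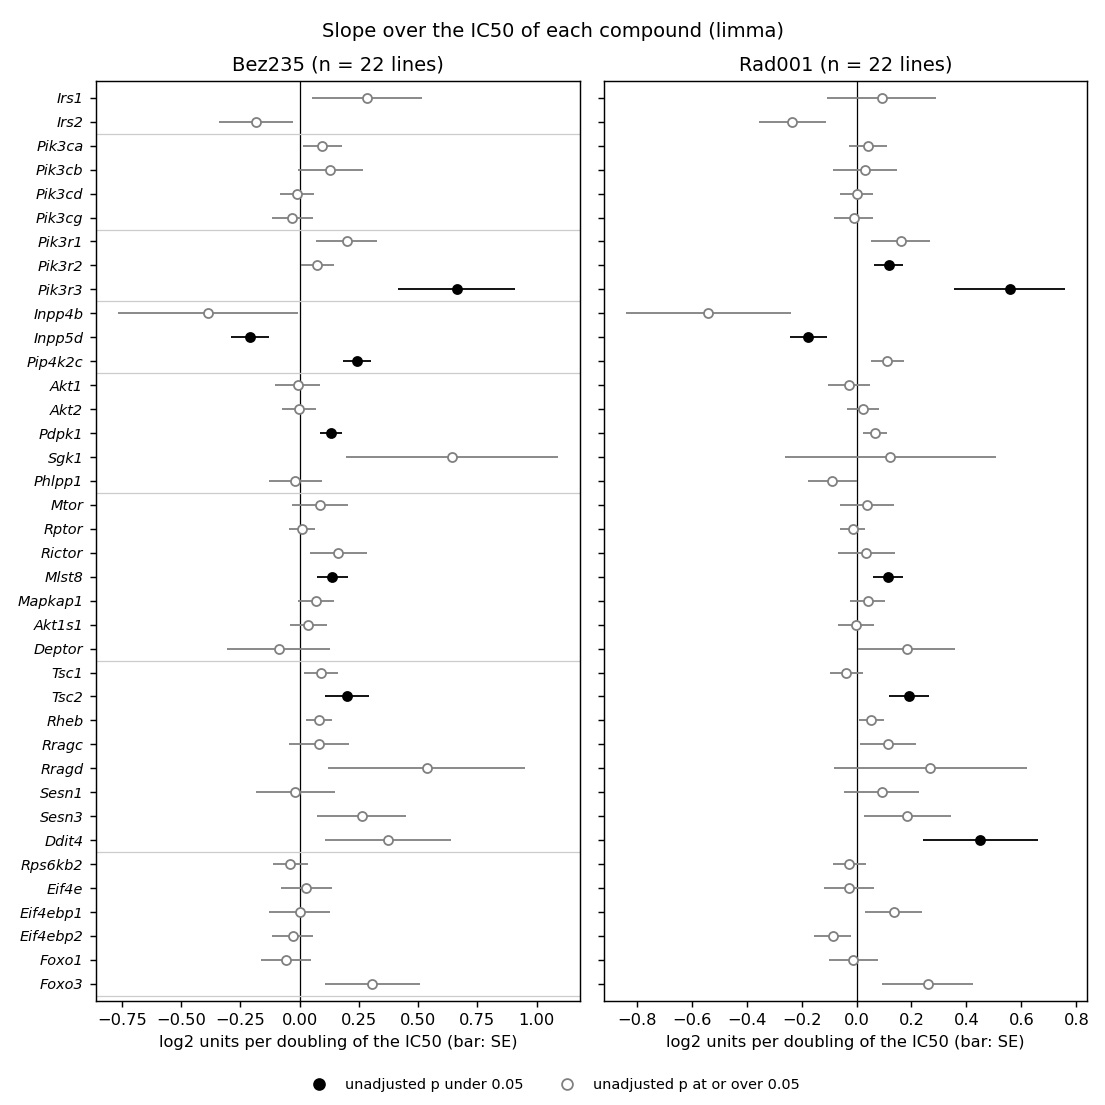
Slope of each member over the IC50 of Bez235 (left) and Rad001 (right), in log2 units per doubling of the IC50, with the SE as bars and n = 22 lines. Filled points have an unadjusted p under 0.05, 6 for each compound, and no member has an adjusted p under 0.05.

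Pip4k2c, a kinase that acts on a neighbouring phosphoinositide, had the smallest p for Bez235. It ran from 6.74 in PPT-17728 through a median of 7.26 to 7.65 in PPT-15272, with a slope of 0.24 (SE 0.058, unadjusted p = 0.000432, rank 21 of all probe sets). Its other probe set had a slope of 0.10 (unadjusted p = 0.187). The slope stayed at 0.25 with the EMT score as a covariate. For Rad001 it was 0.11 (unadjusted p = 0.0727).

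The median slope over members was 0.078 for Bez235 and 0.041 for Rad001, beside 0.0060 and 0.0059 for all genes. For each compound 25 of 38 slopes were positive (65.8%), beside 52.4% of all genes for Bez235 and 53.3% for Rad001. Pik3r3 had the steepest positive slope for both compounds, 0.66 for Bez235 (SE 0.25, unadjusted p = 0.0134) and 0.56 for Rad001 (SE 0.20, unadjusted p = 0.0115). Tsc2 was at 0.20 (unadjusted p = 0.0401) and 0.19 (unadjusted p = 0.0156), and Mlst8, a subunit of both mTOR complexes, at 0.14 (unadjusted p = 0.0441) and 0.11 (unadjusted p = 0.0440). Pdpk1 had 0.13 for Bez235 (unadjusted p = 0.00899) and 0.07 for Rad001 (unadjusted p = 0.134). Its other probe set had 0.048 and -0.031 in the same limma fits (unadjusted p = 0.708 and 0.771). Inpp5d, a lipid phosphatase typical of blood cells, had negative slopes of -0.21 and -0.18 (unadjusted p = 0.0175 and 0.0158), but its signal was only 3.31 to 4.60, with 4 lines below the array median. With the EMT score as a covariate in the limma fit for Bez235, Tsc2 and Mlst8 had unadjusted p = 0.0655 and 0.0698. Pik3r3, Pdpk1 and Inpp5d then had 0.0208, 0.0142 and 0.0296. For Rad001 with this covariate, Tsc2 and Mlst8 had 0.00378 and 0.0403. Irs2 had -0.18 and -0.23 (unadjusted p = 0.249 and 0.0694) and Inpp4b -0.39 and -0.54 (unadjusted p = 0.322 and 0.0865). Foxo1 followed for Bez235 with -0.057 (unadjusted p = 0.597) and Eif4ebp2 for Rad001 with -0.087 (unadjusted p = 0.214). Both IC50 fits use the same arrays, so these values are not independent of each other.

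In the Rad001 fit, 0 of 38 members and 0% of all genes passed, and the smallest adjusted p of a member was 0.969. Without adjustment 5 members had a positive slope with p under 0.05 (13.2%, beside 2.97% of all genes) and 1 a negative slope (2.63%, beside 1.78%). Ddit4, at 0.45 (SE 0.21, unadjusted p = 0.0410), and Pik3r2, at 0.12 (SE 0.054, unadjusted p = 0.0399), were the ones not in the Bez235 set. For the genes of the targets, Mtor had slopes of 0.09 for Bez235 and 0.04 for Rad001 (unadjusted p = 0.469 and 0.706). A dimmer probe set of Mtor, at 5.24 to 6.96, had 0.19 for Bez235 (unadjusted p = 0.0265) and 0.11 for Rad001 (unadjusted p = 0.139). Pik3ca had 0.10 and 0.04 (unadjusted p = 0.254 and 0.563).

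The unadjusted sets depended on few lines. Without ASC-5193 they shrank from 6 to 2 members for Bez235 and from 6 to 3 for Rad001. Among the matched lines ASC-5193 had the highest IC50 of both compounds, and it also had the highest EMT score. Without PPT-6051 the Bez235 set was 3. Without ASC-53909 or without PPT-15272 the Rad001 set was 3. With B-152727 taken as B-15272 of the study's list, Pip4k2c kept a slope of 0.22 for Bez235 (unadjusted p = 0.000354, adjusted p = 0.605), while Pdpk1 and Tsc2 were at unadjusted p = 0.0514 and 0.0538. Inpp5d then had slopes of -0.14 for Bez235 and -0.10 for Rad001 (unadjusted p = 0.0912 and 0.112).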

How the data were processed

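RNA of 23 murine PDAC lines was hybridised to Affymetrix oligonucleotide arrays of the mouse genome, 1 per line. The authors deposited normalized log2 values of every probe set for each array. The supplementary methods name VSN and the submitters' processing notes name RMA, with versions not given in the sources used here, so which of them made the values is unknown. Either method compresses differences between dim probe sets, and arrays hold no counts, so the number of lines limits the precision. Array medians ranged from 3.58 to 3.89, and no arrays held identical values.

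The deposited log2 values were used unchanged. Of 45101 probe sets, 64 controls were left out and 45037 tested without a filter. The platform annotation gives 34945 of them 1 symbol, 932 several and 9160 none. Slopes over the EMT score and over the log2 IC50 of Bez235 and Rad001 were fitted with limma 3.58.1 (lmFit and eBayes) in R 4.3.3, p-values adjusted by Benjamini-Hochberg across all tested probe sets and a call at 0.05. IC50 values were read from the study's supplement as a covariate only. The fit was tested on simulated data with known slopes. Figures were drawn with matplotlib 3.10.9 in Python 3.11.15.

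Lines of 1 number may come from 1 mouse. Over all probe sets, pairs of lines with the same number had a median correlation of deviations of 0.417 (15 pairs, with B-152727 counted under 15272) and other pairs of -0.085 (238 pairs). B-152727 itself correlated at a median of 0.046 with the 3 lines of number 15272. The number was therefore used as a random block and as 1 mean per number among the alternatives, beside other normalizations, a filter, other variance models, other scores, other probe sets and each line left out. Members and lists were chosen with earlier results of these data known. Genes named with full values were the members that passed (or the 4 with the smallest p in each direction where none did), the 6 with the largest SD, the isoform pairs, and up to 4 other pathway genes in each direction; any other was named after its values were seen. A further allele of the lines is not reported here.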

Additional observations from a re-analysis of the deposited data

How the results depend on the processing

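Of the 9 members that passed over the EMT score, 9 passed with brighter probe sets only, with trended and robust variances or without B-152727, 8 with the PPT prefix as a covariate, with mesenchymal genes alone or with centred arrays, 7 with ranks of the score, 6 with the replicate block (Pik3cd, Pik3r1 and Phlpp1 lost, adjusted p = 0.0573, 0.0536 and 0.0742; it changed no other call) or with the probe set of the largest SD, and 5 after another quantile normalization. With 1 mean per number, 3 members passed, 12 had an unadjusted p under 0.05 (20 as reported) and 3128 probe sets passed (6350 as reported). With epithelial genes alone these were 2, 13 and 3548, within the low-score lines 0, 3 and 97, and within the high-score lines 0, 4 and 425. Fewer lines enter these last fits, and the cause was not tested otherwise. Within the high-score lines the slopes turned to -0.17 for Akt2, -1.36 for Phlpp1, -1.42 for Sesn1 and 0.32 for Pik3cd. The scores of these lines were 1.35 to 1.43 SD, except 1.78 SD in ASC-5193, so the slopes rest largely on that line. Within the low-score lines the slope of Pik3cd turned to 0.0026. None of these slopes had an adjusted p under 0.05. Within the low-score lines Pik3ca, Pik3r1 and Phlpp1 had slopes of 0.20, 0.29 and 0.22, but with SEs of 0.13, 0.17 and 0.15 and unadjusted p = 0.134, 0.107 and 0.164 (limma). Leaving out each line in turn gave 3 to 13 members with an adjusted p under 0.05, 15 to 21 with an unadjusted p under 0.05, and 5060 to 6894 probe sets.

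For Bez235, no alternative other than leaving out a line gave a probe set with an adjusted p under 0.05. The unadjusted set of 6 members was 2 with 1 mean per number, 3 with ranks of the IC50 and 2 without the line of the highest IC50. That line is ASC-5193 for both compounds, so this is the fit without ASC-5193 given above and not a further check. For Rad001 the unadjusted set was 3 without ASC-5193. Leaving out each line gave 0 to 1 probe sets for both compounds, 2 to 6 members at an unadjusted p under 0.05 for Bez235 and 3 to 7 for Rad001. The slope of Foxo1 over the Bez235 IC50, as reported -0.057, ran from -0.11 to 0.0059 over the lines left out, turned to 0.0091 with the replicate block, 0.00048 with another probe set and 0.0059 without ASC-53909, and was under its SE in the fit as reported. With arrays centred on their medians, the median slope of all probe sets over the EMT score moved from -0.0042 to 0.029. Signals below the array median, as for Pik3cg in 22 lines and Rragd in 15, limit what can be said of those genes. With 6 high-score lines, all of different numbers, the contrast between the sets cannot be told apart from anything else they share.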
